A study of Mus musculus with 18 samples.

Results

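Mouse neonatal ventricular cardiac fibroblasts treated with angiotensin II were compared directly with the same kind of cells given siRNA against Foxm1. The comparison takes 6 of the 18 libraries of the study, 3 of Ang-II and 3 of si-Foxm1, and every gene whose deposited FPKM averaged at least 1 over those 6 libraries, which was 11194 of the 18264 genes listed. FPKM counts the fragments assigned to a gene, divided by the gene's length and by the size of the library. Genes at the edge of the filter were Lurap1 at 1.0004 FPKM, just inside, and Dixdc1 at 0.9992 FPKM, just outside. Both treatments were set against si-NC, cells with a negative control siRNA, in the same arm of the study, and another group, si-Foxm1+Ang-II, received both. An overexpression arm (OE-NC and OE-Foxm1) was not used for the comparison. The labels do not give the dose or time of the hormone, the siRNA sequence, or whether the Ang-II cells also carried control siRNA. Nothing in the labels says that the 3 libraries of a group came from separate cultures, so the p-values measure the spread between these libraries, which may be technical.

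Foxm1 encodes a forkhead transcription factor that drives genes of the G2 phase and of mitosis, together with the MuvB complex and B-Myb. Angiotensin II is the effector peptide of the renin-angiotensin system, and in cardiac fibroblasts its type 1 receptor signals through Gq proteins to calcium, kinases and TGF-beta, with collagen and matrix output as the best known result. The direct comparison asks how the transcriptomes of these cells differ when Foxm1 mRNA has been brought low in either way.

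The 3 Ang-II libraries held 18167808 to 18886695 counted fragments and the 3 si-Foxm1 libraries 18585677 to 18719840. Ang-II replicate 3 stood apart: it differed from the other Ang-II libraries by a mean chi-square per gene of 5.09 and 5.52, where counting error alone would give about 1 and other pairs within these groups gave 1.77 to 2.88. Levels below are scaled FPKM, the deposited value divided by a factor per library (0.937 to 0.955 in Ang-II, 1.064 to 1.080 in si-Foxm1) that brings the typical gene to the same level. They are given in the order of replicates 1, 2 and 3. Differences are log2 of scaled FPKM plus 1, Ang-II minus si-Foxm1, 3 libraries against 3, with limma's standard error. The spread behind that error was estimated from all 12 libraries of the knockdown arm and not from these 6 alone. This scale understates differences of genes at low FPKM. A gene was called higher or lower, always meaning in Ang-II relative to si-Foxm1 unless said otherwise, when limma's p-value adjusted over the 11194 genes was under 0.05.

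The Ang-II and si-Foxm1 transcriptomes differed in most genes by a little and in few genes by a lot. Of the 11194 genes, 7603 were called (67.9%), with 3895 higher (34.8%) and 3708 lower (33.1%). The 3 Ang-II values lay wholly above or below the 3 si-Foxm1 values for 70.8% of genes. Differences of at least 2-fold on the log2 scale were found for 169 genes higher (1.51%) and 210 lower (1.88%), and 95.02% of the called genes differed by less. The median gene differed by 0.01 and the middle 50% of genes lay between -0.19 and 0.21. Against si-NC, 22.2% of genes were higher and 21.6% lower in Ang-II, and 26.4% were higher and 29.1% lower in si-Foxm1. These last comparisons share the si-NC libraries. Without the scaling factors the median of all genes moved to -0.15, and the split became 2153 genes higher and 6132 lower, so a list of genes is described below relative to the typical gene.

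Foxm1 itself did not pass the test between the treatments. It stood at 4.50, 4.31 and 5.91 scaled FPKM in Ang-II and at 5.68, 4.75 and 6.30 in si-Foxm1. The groups overlapped, Ang-II replicate 3 being higher than 2 of the si-Foxm1 libraries. The difference was -0.16 ± 0.10 (adjusted p = 0.161), and the two-sided exact permutation test over the 6 libraries gave p = 0.3, where 0.1 is the smallest possible. It did pass the limma test without Ang-II replicate 3 (-0.28, adjusted p = 0.00846), without si-Foxm1 replicate 2 (-0.25, adjusted p = 0.0349), and without scaling (-0.31, adjusted p = 0.0112). In si-NC, Foxm1 stood at 10.6, 9.88 and 10.5, above every library of either treatment (-0.95 ± 0.10 for Ang-II and -0.79 ± 0.10 for si-Foxm1, exact permutation p = 0.1 for each). The libraries given both treatments held 3.48, 3.33 and 3.02.

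Genes of the division cycle were far lower in Ang-II than in si-Foxm1, while the difference in Foxm1 mRNA itself was small. Of 30 genes listed as targets of Foxm1, all 30 passed the filter, 29 were lower, 20 of them by at least 2-fold, and the remaining one was Foxm1. Their median difference was -1.11, where 33.1% of all genes were lower and 1.88% lower by at least 2-fold. Of 39 tested genes of G2 and mitosis, 38 were lower, 25 by at least 2-fold, with a median of -1.17, and the exception was Ube2s, a ubiquitin-conjugating enzyme, at -0.03 ± 0.03 (adjusted p = 0.394). All 43 tested genes of DNA replication and S phase were lower, 16 by at least 2-fold, with a median of -0.92. Without Ang-II replicate 3, the lists gave 30, 38 and 43 lower genes. Knl1 of the G2 and mitosis list, at 0.711, 0.553 and 0.744 in Ang-II, passed the filter of 1 FPKM only through si-Foxm1. Kif15 (0.993, 0.899 and 1.17) and Espl1 (1.08, 0.789 and 1.23) lay near 1 in Ang-II. The filter favours lower calls for such genes, and their number in these lists was not counted. Bulk libraries cannot tell fewer dividing cells from less of these mRNAs in each cell.

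Some of these genes carry, before their start, letters known to be bound in cell cycle promoters. The 4 shown are examples and not the 4 clearest differences of the lists. The sequences are the 120 bases before the annotated start, from RefSeq on GRCm38.p6, 5′ to 3′ on the gene's strand. Capitals mark CCAAT boxes (CCAAT, or ATTGG on the other strand) and the cell cycle homology region (TTTGAA or TTCGAA, the former read as TTCAAA on the other strand), the element to which MuvB binds.
Top2a, chr11:99024190-99024309, minus strand: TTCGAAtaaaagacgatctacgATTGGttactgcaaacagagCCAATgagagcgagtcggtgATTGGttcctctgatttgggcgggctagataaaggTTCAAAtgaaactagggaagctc
Kif11, chr19:37376262-37376381, plus strand: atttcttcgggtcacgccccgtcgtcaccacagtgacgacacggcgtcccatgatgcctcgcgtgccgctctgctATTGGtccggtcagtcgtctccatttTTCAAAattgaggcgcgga
Aurka, chr2:172370571-172370690, minus strand: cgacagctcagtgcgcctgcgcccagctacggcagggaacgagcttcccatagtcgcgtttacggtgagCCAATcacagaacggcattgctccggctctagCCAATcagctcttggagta
Cdca8, chr4:124936918-124937037, minus strand: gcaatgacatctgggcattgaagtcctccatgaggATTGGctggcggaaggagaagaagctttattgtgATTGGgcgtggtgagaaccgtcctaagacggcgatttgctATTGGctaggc

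In Top2a and Kif11 a homology region begins 23 and 19 bases before the start, with CCAAT boxes farther upstream. Top2a holds another homology region that begins 120 bases before the start, upstream of its CCAAT boxes. In Aurka and Cdca8 these 120 bases hold CCAAT boxes and no homology region. Among named genes of these lists not shown, Racgap1, Smc2, Cks2 and Bub1b held CCAAT boxes and no homology region there, and Nusap1 held neither. Of the 2 promoters of Prc1, only the downstream promoter held a homology region. Over the 250 bases before the start, the homology region on either strand was present in 42.9% of 35 promoters of the tested G2 and mitosis genes, in 37.0% of 27 promoters of Foxm1 targets, in 16.3% of 43 promoters of replication genes, and in 12% of 11488 promoters of all tested genes. CCAAT was present in 65.7%, 85.2%, 58.1% and 35.1% in the same order. It was also present in 77.3% of 22 promoters of unfolded protein response genes, most of which were higher in Ang-II, and in 38.7% of 31 promoters of collagen and structural genes. The forkhead letters GTAAACA were present in 2.9%, 7.4%, 2.3% and 2.1%. The letters TTTCCCGC or TTTGGCGC, bound by E2F factors, were present in 14.0% of promoters of the replication genes against 2.5% of all. RefSeq promoters were matched for 8991 of the 11194 genes, and a match describes letters only.

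Aurka, a kinase of the spindle poles, held 3.41, 3.36 and 3.56 scaled FPKM in Ang-II and 8.65, 8.96 and 9.22 in si-Foxm1 (-1.16 ± 0.05, adjusted p = 2.30e-10). Top2a, the topoisomerase that untangles chromosomes, held 9.52, 8.69 and 11.7 against 29.7, 30.3 and 34.4 (-1.57 ± 0.08, adjusted p = 1.06e-09). All Ang-II libraries lay below all si-Foxm1 libraries for each. Prc1, which bundles the midzone microtubules of the spindle, had the lowest difference of the Foxm1 targets, with 7.35, 5.96 and 8.36 against 23.2, 22.4 and 26.9 (-1.62 ± 0.09, adjusted p = 2.06e-09). The checkpoint kinase gene Bub1b held 3.55, 2.88 and 3.80 against 10.1, 10.6 and 11.3 (-1.41 ± 0.07, adjusted p = 8.86e-10). Ang-II replicate 3 was the highest of its group for all 4 of these genes, yet stayed below every si-Foxm1 library.

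Cdca8, a subunit of the chromosomal passenger complex, had 5.68, 5.01 and 5.42 against 16.4, 15.8 and 17.2 (-1.46 ± 0.05, adjusted p = 3.72e-11). Its partner Incenp differed by -1.31 ± 0.06 and the kinase of the same complex, Aurkb, by -1.49 ± 0.08. Kif11, the motor that pushes spindle poles apart, had 3.09, 2.76 and 3.52 against 9.44, 9.57 and 11.1 (-1.42 ± 0.07, adjusted p = 6.60e-10). In the replication list the helicase subunit Mcm3 had 9.35, 9.13 and 11.5 against 24.0, 24.7 and 25 (-1.22 ± 0.07, adjusted p = 2.54e-09). The primase gene Prim1 (-1.16 ± 0.06), the polymerase gene Pola1 (-1.04 ± 0.06) and the chromatin assembly gene Chaf1b (-1.32 ± 0.08) were lower too.

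The control cells lay near si-Foxm1 in these genes. Top2a stood at 25.1, 22.7 and 23.8 in si-NC, so si-Foxm1 was above its own control for this Foxm1 target (0.38) and Ang-II was below it (-1.19). Against si-NC, 30 of 30 Foxm1 targets were lower in Ang-II, Foxm1 among them. In si-Foxm1 3 were lower (Foxm1 itself, Cdc25b and Cenpf) and 11 higher. Of the 43 replication genes 43 were lower in Ang-II, and 29 were higher and 2 lower in si-Foxm1. Over all genes 22.2% were higher and 21.6% lower in Ang-II against si-NC, and 26.4% higher and 29.1% lower in si-Foxm1. The siRNA libraries had less Foxm1 mRNA but not less mRNA of most of its listed targets.

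**Figure D1:**
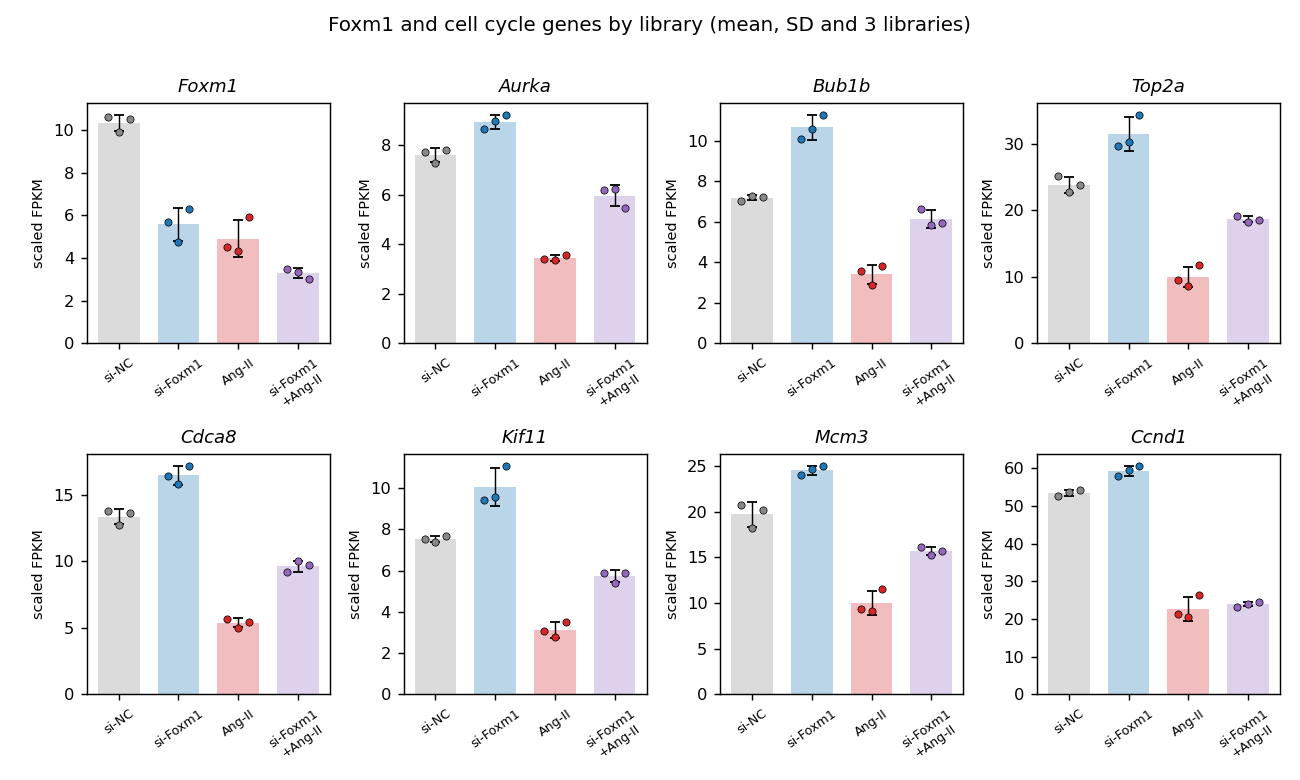
Scaled FPKM of Foxm1 and of 7 cell cycle genes in the 4 groups of the knockdown arm; bars are means, whiskers the SD and points the 3 libraries, and each axis starts at 0. Foxm1 overlaps between si-Foxm1 and Ang-II, while the other 7 genes are lower in every Ang-II library than in every si-Foxm1 library.

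Of 23 genes of cell cycle inhibitors, pocket proteins, E2F and MuvB partners and D cyclins, 4 were higher and 10 lower, beside 34.8% and 33.1% of all genes. Ccnd1, the cyclin that carries growth signals to the cycle, held 21.3, 20.5 and 26.4 scaled FPKM in Ang-II and 57.9, 59.7 and 60.6 in si-Foxm1 (-1.36 ± 0.07, adjusted p = 7.46e-10). Mybl2, which encodes B-Myb, was lower at -1.04 ± 0.08 and the pocket protein gene Rbl1 at -0.83 ± 0.06. The CDK inhibitor Cdkn2b, a known TGF-beta target, was higher with 23.7, 23.7 and 18.4 against 14.0, 13.9 and 13.4 (0.63 ± 0.07, adjusted p = 2.86e-06). The other 3 inhibitors that were higher were Cdkn1a (0.44 ± 0.06), Cdkn2d (0.36 ± 0.09) and Cdkn1b (0.17 ± 0.04). The inhibitors did not move together. Cdkn2c was lower (-1.01 ± 0.07, adjusted p = 3.01e-08), a larger difference than any of these, and Cdkn1c (-0.20 ± 0.09) and Cdkn2a (-0.23 ± 0.11) were not called. For Cdkn1a, si-NC held 111, 120 and 118, near the 97.2 to 116 of Ang-II and above the 78.0, 77.3 and 74.1 of si-Foxm1. Of 27 p53 targets 17 were higher and 6 lower, with a median of 0.23. Without scaling 11 were higher and 7 lower, with a median of 0.06. Ei24, Perp, Mdm2 and Gdf15 differed by 0.82, 0.57, 0.35 and 0.55, and none of them was called in Ang-II against si-NC, where they differed by -0.00, 0.09, 0.03 and 0.04. Fas (0.81 ± 0.09) was called higher in Ang-II against si-NC as well (0.47). Ckap2, which is also in the G2 and mitosis list, was lower than in si-Foxm1 (-0.99 ± 0.08) and than in si-NC (-1.10).

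The 15 genes highest in Ang-II included secreted, matrix and muscle proteins. Tnfrsf11b, which encodes osteoprotegerin, a soluble decoy receptor, held 36.0, 40.1 and 22 scaled FPKM in Ang-II against 2.83, 2.42 and 2.12 in si-Foxm1 (3.25 ± 0.16, adjusted p = 8.94e-10). Ltbp2, a microfibril protein of the latent TGF-beta binding family, held 20.9, 21.0 and 15.9 against 1.91, 2.04 and 1.80 (2.79 ± 0.08, adjusted p = 9.46e-12). St14, a membrane serine protease, held 18.6, 16.7 and 15.2 against 1.69, 1.88 and 1.85 (2.66 ± 0.07, adjusted p = 4.69e-12). Ang-II replicate 3 had the least of its group for each of these 3 genes and was still above every si-Foxm1 library. The chemokine Ccl17 (2.53), the annexin Anxa8 (2.68), the protease inhibitor Serpinb1a (2.42) and the cysteine dioxygenase Cdo1 (2.23) were of like size. The sarcomere and muscle genes among the 15 highest were Tcap (2.59), Nmrk2 (2.43), Casq2 (2.27) and Myh7 (2.19), and the matrix genes were Mfap4 (2.48), Lox (2.43) and Col11a1 (2.32). For the muscle genes si-Foxm1 was the group farther from si-NC, at -3.05, -2.46, -2.65 and -1.95 in that order. Ang-II was below si-NC for Tcap (-0.45) and Casq2 (-0.38), not called for Nmrk2 (-0.03) and above it for Myh7 (0.24). Sprr2a3 (2.24) belongs to a family of near-identical genes whose fragments the counting could split, so its value is uncertain. With a si-Foxm1 mean of 0.568, Sprr2a3 passed the filter only through Ang-II.

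On the si-Foxm1 side the largest difference was that of Aldh1b1. This gene of a mitochondrial aldehyde dehydrogenase held 5.95, 5.49 and 5.93 in Ang-II against 43.1, 46.4 and 43.2 in si-Foxm1 (-2.74 ± 0.05, adjusted p = 4.51e-13). The si-NC libraries were near Ang-II at 9.87, 11.7 and 9.98. The tubulin gene Tuba8 held 4.18, 4.00 and 4.05 against 22.3, 24.0 and 22 (-2.23 ± 0.05, adjusted p = 7.64e-13), again with si-NC low at 7.11, 7.79 and 6.70. Gsta4, a glutathione transferase, held 9.17, 8.86 and 7.64 against 29.8, 31.8 and 30.1 (-1.73 ± 0.05, adjusted p = 1.85e-11), and si-NC 9.84, 10.4 and 9.90. For these 3 genes si-Foxm1 was the group away from the control. In si-Foxm1+Ang-II they stayed high, Aldh1b1 for example at 35.2, 35.2 and 35.6.

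In a smaller set Ang-II was the group farther from the control. Thy1, a surface marker of fibroblasts, held 31.1, 27.3 and 32.5 in Ang-II, 101, 90.6 and 115 in si-Foxm1, and 130, 115 and 117 in si-NC (-1.72 ± 0.08 between the treatments, adjusted p = 4.17e-10). Ecrg4, a secreted growth inhibitor, held 2.03, 2.24 and 4.74 against 12.2, 12.8 and 17.2, with 17.8, 17.9 and 18.1 in si-NC (-1.96 ± 0.18). The metalloproteinase Mmp3 (-2.32 ± 0.17) and the prostaglandin receptor Ptger4 (-1.76 ± 0.12) lay between: si-NC was between the treatments for each, and both Ang-II and si-Foxm1 were called against it in opposite directions. The remaining 8 of the 15 lowest were Gsta2, Mcpt4, Fndc5, Gbp6, Doc2g, Tmem116, Rai2 and Aqp8, from -2.57 to -1.73, all higher in si-Foxm1 than in si-NC. Gsta2, Mcpt4 and Gbp6 have near-identical family members, so their values are uncertain. Gsta2, Gbp6 and Aqp8 passed the filter of 1 FPKM only through si-Foxm1, with Ang-II means of 0.197, 0.541 and 0.530.

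**Figure D2:**
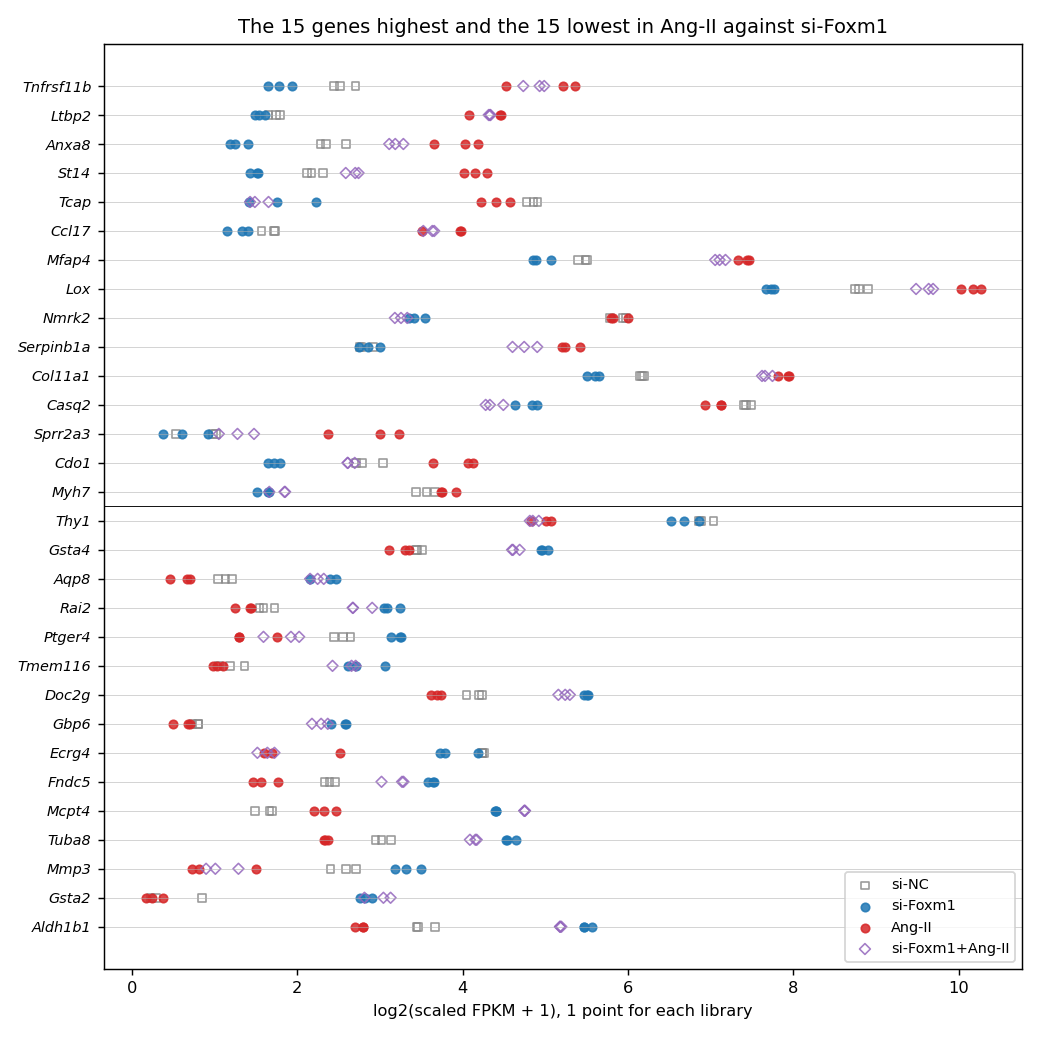
Log2 of scaled FPKM plus 1 for the 15 genes highest and the 15 lowest in Ang-II against si-Foxm1, with 1 point for each library; filled circles are the groups compared, open squares si-NC and open diamonds si-Foxm1+Ang-II. Tnfrsf11b leads the upper block at 3.25 and Aldh1b1 the lower one at -2.74, and in Tcap, Casq2 and Myh7 the diamonds lie on the si-Foxm1 side.

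Matrix genes were mostly higher in Ang-II, against 34.8% of all genes. Of 37 fibrillar collagen and structural genes 23 were higher, 7 by at least 2-fold, and 9 lower, with a median of 0.32. Among 26 genes that process and cross-link collagen, 23 were higher and 1, the procollagen protease Adamts14, was lower (-0.54 ± 0.06), with a median of 0.55. Of 29 matricellular proteins and proteoglycans 18 were higher, 9 by at least 2-fold, and 7 lower, with a median of 0.38. The medians stayed above 0 without scaling (0.14, 0.38 and 0.21) and under quantile normalization (0.17, 0.47 and 0.22).

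Lox, the enzyme that cross-links collagen and elastin, held 1153, 1232 and 1041 in Ang-II against 211, 203 and 217 in si-Foxm1 (2.43 ± 0.06, adjusted p = 3.24e-12). With 428, 477 and 444 in si-NC, Lox was above the control in Ang-II (1.34) and below it in si-Foxm1 (-1.09). Col11a1, a minor fibrillar chain that sets fibril diameter, held 243, 247 and 225 against 47.6, 44.3 and 49.1 (2.32 ± 0.04, adjusted p = 4.51e-13). The chain of the main fibril, Col1a1, held 1483, 1449 and 1375 against 631, 601 and 653 (1.19 ± 0.04, adjusted p = 1.22e-11). The groups were well apart in all 3 genes. Col12a1 (2.17 ± 0.05), Col5a2 (1.64 ± 0.04) and the elastic fibre gene Fbln5 (1.22 ± 0.04) went the same way, as did the cross-linking enzymes Loxl2 (1.39 ± 0.05), Loxl4 (0.95 ± 0.04) and Plod2 (1.17 ± 0.05).

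Not every collagen followed. Col3a1, the other major interstitial chain, held 434, 413 and 585 against 451, 445 and 516, with overlapping groups (0.01 ± 0.10, adjusted p = 0.962). The 9 lower genes, named after their values were seen, were Col15a1 (-0.69 ± 0.06), Col18a1 (-0.25 ± 0.05), Lama4 (-0.36 ± 0.05), Nid1 (-0.15 ± 0.03), Nid2 (-0.30 ± 0.05), Fbln1, Emilin1, Emilin2 and Mfap2. Genes of the basement membrane went both ways: beside the lower laminin chain Lama4 and the nidogens, the laminin chains Lama2 (1.38 ± 0.05), Lamc1 (0.50 ± 0.02) and Lamb1 (0.32 ± 0.03) and the collagens Col4a5 (0.33 ± 0.03), Col4a2 (0.19 ± 0.02) and Col4a1 (0.16 ± 0.03) were higher.

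Among matricellular proteins, Cthrc1, a secreted marker of matrix-making fibroblasts, held 111, 117 and 102 against 26.6, 28.1 and 28.7 (1.95 ± 0.05, adjusted p = 4.92e-12). Tgfbi, named for its induction by TGF-beta, held 21.2, 18.7 and 18 against 5.38, 5.13 and 5.55 (1.67 ± 0.07), and si-NC was as low as si-Foxm1 at 5.44, 6.08 and 5.09. The CCN family members Ccn5 (1.74 ± 0.07) and Ccn4 (1.64 ± 0.07) and the proteoglycan Vcan (1.23 ± 0.04) were higher. Tenascin C (Tnc, -0.68 ± 0.03), Ccn3 (-0.89 ± 0.12) and the leucine-rich proteoglycans Lum (-0.52 ± 0.19), Dcn (-0.24 ± 0.08) and Prelp (-0.76 ± 0.13) were lower. Lum shows the odd library: it held 15.3 and 14.2 in Ang-II replicates 1 and 2 but 30.6 in replicate 3, above all of si-Foxm1 (26.4, 26.6 and 29.8).

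Of 27 protease and inhibitor genes 15 were higher and 11 lower, beside 34.8% and 33.1% of all genes. The plasminogen activator Plau was lower at 5.21, 5.08 and 5.78 against 12.7, 12.3 and 15.3 (-1.18 ± 0.08, adjusted p = 9.56e-09). The second activator, Plat, was at -1.62 ± 0.13. Of the tissue inhibitors of metalloproteinases, Timp1 (0.88 ± 0.03) and Timp3 (1.04 ± 0.04) were higher and Timp2 lower (-0.51 ± 0.04).

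**Figure D3:**
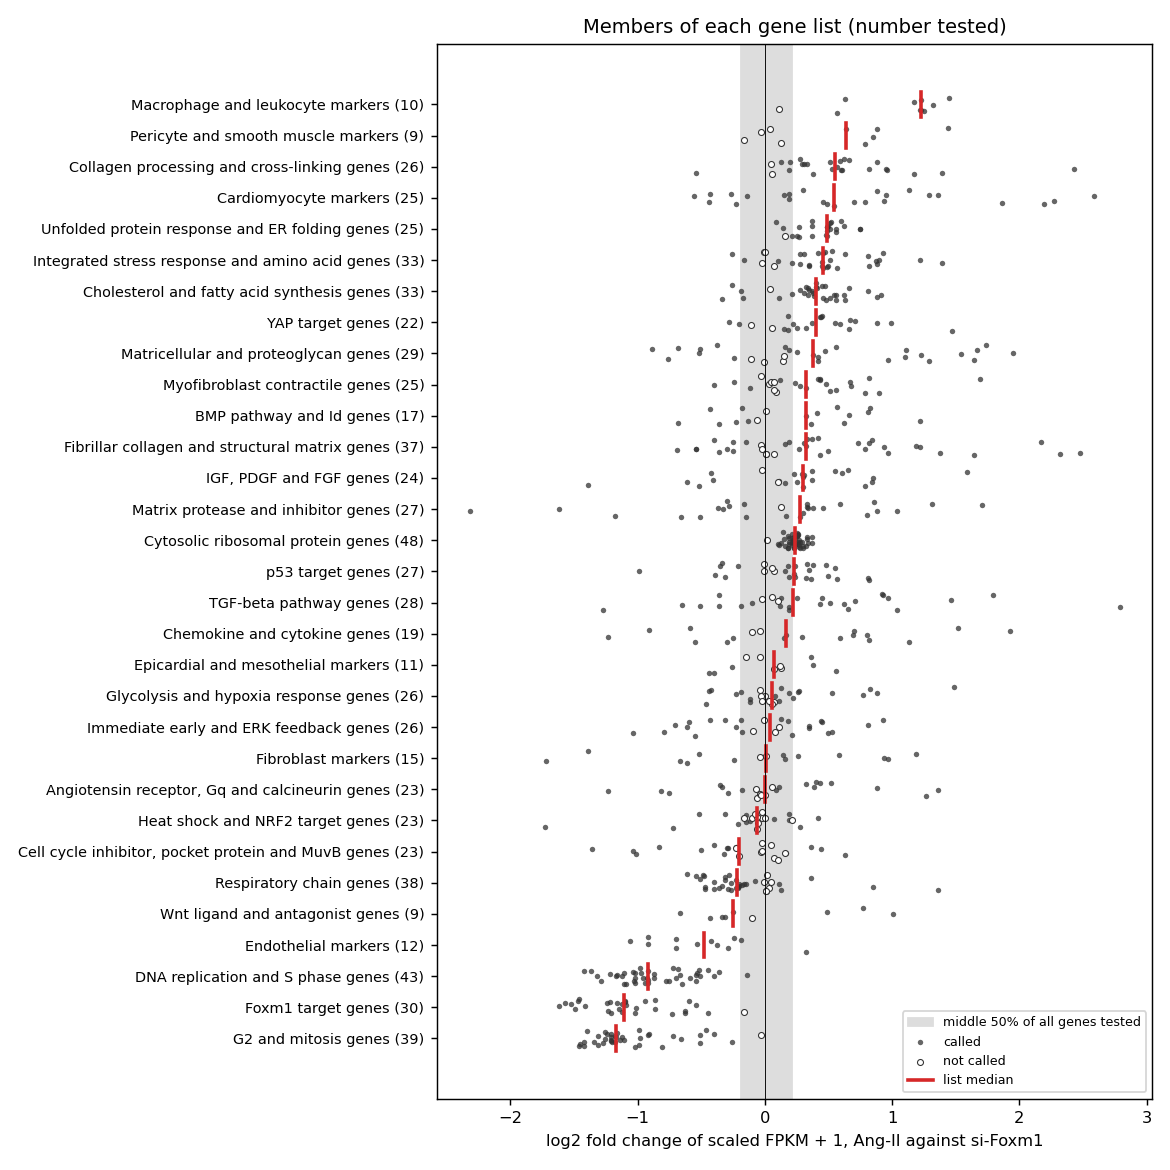
Log2 difference in Ang-II against si-Foxm1 of each tested gene of the lists with at least 5 tested genes; filled points were called, open points were not, red ticks are list medians and the grey band holds the middle 50% of all genes (-0.19 to 0.21). The 3 division cycle lists lie far to the left (medians -1.17, -1.11 and -0.92), and the macrophage list farthest to the right (1.23).

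The TGF-beta list, with 18 of 28 genes higher and 7 lower and a median of 0.22 (0.04 without scaling), was mixed. Over all genes 34.8% were higher and 33.1% lower. Ltbp2, Ltbp3 (0.71 ± 0.03) and Ltbp4 (0.45 ± 0.03) of the latent TGF-beta binding family were higher. So were the activin ligand chain Inhba (0.97 ± 0.05) and the activin antagonist Fstl3 (1.79 ± 0.10). Receptor and transducer genes were among the lower ones, namely Tgfbr1 (-0.36 ± 0.04), Tgfbr3 (-0.51 ± 0.05) and Smad3 (-0.65 ± 0.05), as was the activin chain Inhbb (-1.27 ± 0.10). In the BMP list 9 of 17 were higher and 6 lower, the latter near the 33.1% of all genes. The receptors Acvr1 (1.22 ± 0.06), Bmpr1a (0.62 ± 0.04) and Bmpr2 (0.57 ± 0.04) were higher, and the target Id1 was lower with 10.8, 12.9 and 13.9 against 20.2, 21.3 and 20.5 (-0.68 ± 0.07, adjusted p = 5.55e-07). Id1 stood higher than in either treatment in si-NC, at 29.3 to 30.3.

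Contractile genes of the myofibroblast were higher for 16 of 25 and lower for 3, with a median of 0.32. Between these treatments 34.8% of all genes were higher and 33.1% lower. Acta2, the smooth muscle actin by which myofibroblasts are recognised, held 1036, 1092 and 1019 in Ang-II against 541, 504 and 644 in si-Foxm1 (0.90 ± 0.07, adjusted p = 4.14e-08). In si-NC it held 956, 954 and 960, so the hormone alone left Acta2 at 0.13 against the control, which was not called, and the siRNA at -0.77. Tpm1, a tropomyosin, followed the same order, with 596, 624 and 562 in Ang-II, 345, 322 and 340 in si-Foxm1 and 589, 624 and 605 in si-NC. Itga11, a collagen-binding integrin, was above the control in Ang-II and below it in si-Foxm1 (1.69 ± 0.09 between them). Over the list, 5 of 25 genes were higher and 10 lower in Ang-II against si-NC, where 22.2% of all genes were higher and 21.6% lower. In si-Foxm1 against the same si-NC libraries 0 were higher and 19 lower, where 26.4% of all genes were higher and 29.1% lower. YAP targets were higher for 18 of 22 genes and lower for 2 (Yap1 itself and Myof), with a median of 0.40. Ajuba (0.99 ± 0.06) and Gadd45b (1.47 ± 0.10) lay highest among the named ones.

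Of the hormone's own pathway, 10 of 23 genes were higher and 7 lower with a median of 0.00, near the 34.8% and 33.1% of all genes. The type 1 receptor gene Agtr1a held 0.784, 0.600 and 0.684 in Ang-II against 2.25, 1.87 and 1.85 in si-Foxm1 (-0.82 ± 0.08, adjusted p = 3.47e-07). Agtr1a passed the filter of 1 FPKM only through si-Foxm1, the group where it is high, so its call is a description. At 0.587, 0.706 and 0.821 in si-NC, the receptor gene was below every si-Foxm1 library, and Ang-II and si-NC overlapped. The precursor gene Agt (-1.23 ± 0.09) and the converting enzyme gene Ace (-0.75 ± 0.05) were lower as well. Agt, with an Ang-II mean of 0.921, also passed the filter only through si-Foxm1. Rcan1, a feedback inhibitor and reporter of calcineurin, held 40.8, 41.3 and 35.3 against 16, 15.9 and 14.8 (1.27 ± 0.06, adjusted p = 9.34e-10), and si-NC lay with Ang-II at 33.4, 37.5 and 34.4. Gnaq, the G protein subunit itself, was not called (0.00 ± 0.04, adjusted p = 0.955). Immediate early and ERK feedback genes were also near those shares, 11 higher and 11 lower of 26, with Klf4 (0.93 ± 0.04) on the upper side and Dusp6 (-0.71 ± 0.04), the ERK phosphatase, on the lower.

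Of 19 tested chemokine and cytokine genes, 11 were higher and 6 lower, beside 34.8% and 33.1% of all genes. Cx3cl1, the membrane-tethered chemokine fractalkine, held 18.6, 20.4 and 14.1 against 3.65, 3.76 and 4.17 (1.93 ± 0.10, adjusted p = 1.06e-09). Ccl2, which draws monocytes, had the opposite direction at 12.6, 12.9 and 19.4 against 35.5, 36.7 and 35.6 (-1.23 ± 0.11, adjusted p = 3.55e-07). The macrophage growth factor Csf1 was higher, with 170, 166 and 150 against 94.1, 88.1 and 95.9 (0.80 ± 0.05). Il6 (1.52 ± 0.15), Ptgs2 (1.13 ± 0.15) and Lif (0.82 ± 0.09), named after their values were seen, were higher too, each with its lowest Ang-II value in replicate 3. Growth factor genes of the IGF, PDGF and FGF families were higher for 17 of 24 and lower for 5. The PDGF receptors parted: Pdgfrb held 137, 130 and 125 against 72.9, 67.4 and 75 (0.85 ± 0.04, adjusted p = 1.38e-09). Pdgfra held 3.35, 3.02 and 4.81 against 11, 11.1 and 11.5 (-1.39 ± 0.11, adjusted p = 6.06e-08). The growth factor Fgf18 (1.59 ± 0.09) was low in si-Foxm1, while Ang-II differed from si-NC by 0.23, which was not called. Of 9 Wnt ligands and antagonists 3 were higher (Wnt9a, Wnt5a and Wif1), near the 34.8% of all genes, and 5 lower.

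Most tested genes of the secretory pathway, stress and lipid lists were higher in Ang-II, against 34.8% of all genes. Of 25 genes of the unfolded protein response and ER folding, 24 were higher and 0 lower, with a median of 0.49 and none reaching 2-fold. The disulfide isomerase P4hb held 454, 435 and 427 against 296, 293 and 304 (0.56 ± 0.03, adjusted p = 6.68e-10), and the chaperone Hyou1 54.8, 53 and 48.5 against 30.4, 29.9 and 31.0 (0.75 ± 0.04). Of 33 genes of the integrated stress response and amino acid supply 27 were higher, 2 by at least 2-fold, and 2 lower (Psat1 and Gpt2), led by the stress regulator Nupr1 at 267, 265 and 218 against 94.3, 92.6 and 95.6 (1.39 ± 0.06, adjusted p = 3.43e-10). Of 33 genes of cholesterol and fatty acid synthesis 28 were higher and 4 lower, with a median of 0.40 and a range of -0.34 to 0.91. The 3 list medians stayed above 0 without scaling, at 0.31, 0.28 and 0.22.

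Respiratory chain genes were lower for 27 of 38 and higher for 5, with a median of -0.22, beside 33.1% lower and 34.8% higher of all genes. The complex III core genes Uqcrc1 (-0.54 ± 0.03) and Uqcrc2 (-0.61 ± 0.03) and the complex II gene Sdha (-0.49 ± 0.03) were the clearest. Ndufa8 of complex I was far outside this pattern, with 95.6, 95.4 and 93.1 in Ang-II against 35.4, 36.6 and 36.6 in si-Foxm1 (1.36 ± 0.04, adjusted p = 5.34e-12). The si-NC libraries held 114, 123 and 112 and the combined treatment 36.2, 35.4 and 33.6, so Ndufa8 was low in both groups that received the siRNA. Atp5d of the ATP synthase had the same order, at 134, 132 and 122, 71.9, 69.1 and 73.2, 151, 159 and 149, and 72.1, 70.8 and 67.7. Cytosolic ribosomal protein genes were higher for 47 of 48 with a median of 0.24, but 17 higher and 2 lower without scaling, and 8 higher and 15 lower with a median of -0.04 under quantile normalization, so no direction is given for them. Glycolysis and hypoxia genes (12 higher and 7 lower of 26) and heat shock and NRF2 genes (5 and 8 of 23) were mixed.

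Markers of the cell types in the cultures moved between the treatments alongside the lists above. Of 15 tested fibroblast markers 7 were higher and 6 lower, with a median of 0.01, beside 34.8% and 33.1% of all genes. Their sum per library was 6232 to 6588 scaled FPKM in Ang-II and 4581 to 4923 in si-Foxm1. Col1a1 and Col1a2, matrix genes given above, weigh heavily in this sum, with means of 1436 and 1286 in Ang-II against 628 and 655 in si-Foxm1. Among these markers Pdgfra, Tcf21 (-0.61 ± 0.08), Dpt (-0.67 ± 0.11) and Thy1 were lower. Col1a1, Col1a2 (0.97 ± 0.03), Mfap5 (0.94 ± 0.09) and Vim (0.26 ± 0.03) were higher. The labelled cell type was thus present by its markers, and so were cardiomyocyte mRNAs at high levels in every library.

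Of 25 cardiomyocyte markers 19 were higher, 7 by at least 2-fold, and 6 lower, with a median of 0.54 and none at 0. Over all genes 34.8% were higher and 33.1% lower. Their sum was 13885 to 15439 scaled FPKM in Ang-II, 9675 to 10205 in si-Foxm1, 17782 to 19268 in si-NC and 7859 to 8159 in the combined treatment. Actc1, cardiac actin, held 2015, 2119 and 1996 in Ang-II against 616, 509 and 571 in si-Foxm1 (1.86 ± 0.06, adjusted p = 1.85e-11). Casq2, the calcium-binding protein of the cardiac sarcoplasmic reticulum, held 139, 139 and 121 against 28.9, 23.9 and 27.6 (2.27 ± 0.07, adjusted p = 1.85e-11). Nppa, the atrial natriuretic peptide, held 2978, 3027 and 2583 against 1160, 1074 and 1102 (1.36 ± 0.05, adjusted p = 1.23e-10). These genes did not move as a block, since the thin filament gene Tnni3 held 322, 330 and 296 against 476, 485 and 443 (-0.56 ± 0.05, adjusted p = 1.38e-07). The other 5 lower markers were Pln, Cox6a2, Ckm, Myl4 and Myom1, from -0.44 to -0.14.

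Macrophage and leukocyte markers were higher for 9 of 10 tested genes, 7 by at least 2-fold, with a median of 1.23, and their sum was 345 to 371 in Ang-II, 126 to 160 in si-Foxm1 and 274 to 280 in si-NC. The shares of all genes, 34.8% higher and 33.1% lower, stand beside this and the next counts. Lyz2, lysozyme of myeloid cells, held 268, 281 and 293 against 117, 93.4 and 96.5 (1.45 ± 0.07, adjusted p = 9.41e-10). The complement genes C1qa, C1qb and C1qc (1.23 to 1.32) and Adgre1, the gene of F4/80 (1.23 ± 0.08), were close to each other in size, and Mrc1 was not called (0.11 ± 0.07, adjusted p = 0.185). Adgre1, with a si-Foxm1 mean of 0.682, passed the filter of 1 FPKM only through Ang-II. Endothelial markers were lower for 11 of 12, with Tek as the exception (0.32 ± 0.07), and summed to 179 to 181 against 222 to 233. Pericyte and smooth muscle markers were higher for 5 of 9 and lower for 0, led by Cspg4 (1.44 ± 0.07). Epicardial markers gave 3 higher and 3 lower of 11, and the 2 tested neural markers (Tubb3 and S100b) were higher. Of the mast cell list 2 genes were tested: Mcpt4 and Kit (-0.78 ± 0.05) were lower, while the defining genes Tpsb2 and Ms4a2 were at 0 in all 6 libraries. Red cell markers did not reach the filter. The part of these other cells in the lists above was not tested.

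**Figure D4:**
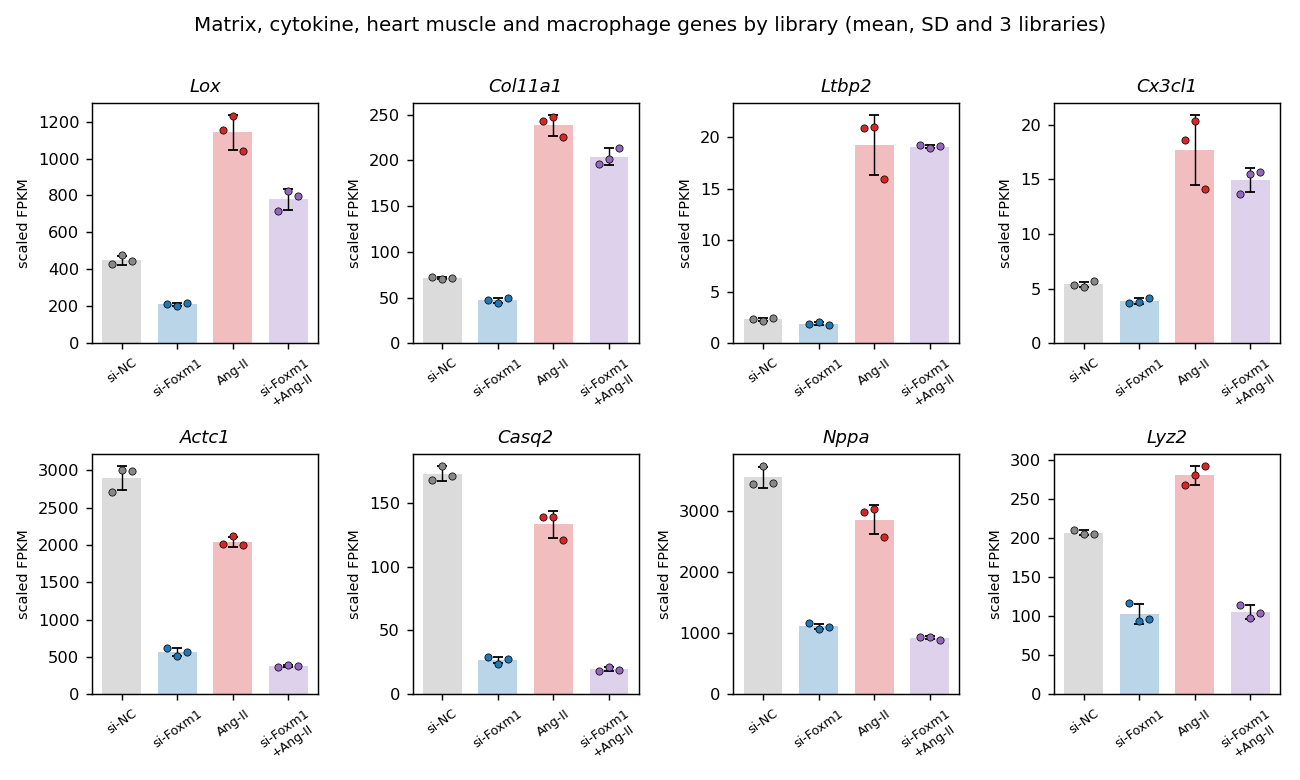
Scaled FPKM of 4 matrix and cytokine genes (upper row) and of 3 heart muscle genes and Lyz2 (lower row) in the 4 groups of the knockdown arm; bars are means, whiskers the SD and points the 3 libraries, and each axis starts at 0. The combined treatment lies near Ang-II for Ltbp2 (19.2, 18.9 and 19.1 against 20.9, 21.0 and 15.9) and near si-Foxm1 for Lyz2 (115, 98.1 and 104 against 117, 93.4 and 96.5).

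The cells given both treatments were placed on the line between the 2 single treatments, with the mean of si-Foxm1 at 0 and that of Ang-II at 1 on the log2 scale. The 3 combined libraries did not enter the filter or the differences, but they shared the scaling and the estimate of spread behind the calls. The placement was made after the data were seen, and it has no test. For the 169 genes at least 2-fold higher in Ang-II, the combined cells were nearer Ang-II for 84 and nearer si-Foxm1 for 85 (median position 0.48). For the 210 lower genes the numbers were 127 and 83 (0.54). In the following counts only called genes at least 0.5 apart on the log2 scale were placed. The share over all called genes at that distance was not computed, so these counts are descriptions without a background.

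Chemokine and cytokine genes of the combined cells lay on the Ang-II side for 12 of 12 genes (median position 0.99), Cx3cl1 for example at 13.7, 15.5 and 15.7. Collagen and structural genes did so for 15 of 17 (0.79), cross-linking genes for 15 of 16 (0.74) and TGF-beta genes for 12 of 14 (0.85). Lower Ccnd1, at 23.3, 24.0 and 24.4, was also on the side of the hormone. Division cycle genes lay midway, at 0.57 for G2 and mitosis, 0.55 for Foxm1 targets and 0.52 for replication, and Aurka at 6.20, 6.22 and 5.46 is an example. The si-NC libraries were nearer si-Foxm1 than Ang-II for all placed genes of these lists, which numbered 35, 28 and 39.

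Lipid, macrophage and muscle genes were on the siRNA side instead. Cholesterol and fatty acid genes of the combined cells were nearer si-Foxm1 for 10 of 10 (median position 0.28) and macrophage markers for 9 of 9 (0.08). Cardiomyocyte markers were nearer si-Foxm1 for 13 of 14, and for 12 of them beyond it (-0.25), while si-NC lay beyond Ang-II (1.34). Casq2 shows the order, at 168, 179 and 171 in si-NC, 139, 139 and 121 in Ang-II, 28.9, 23.9 and 27.6 in si-Foxm1, and 18.4, 21.5 and 19.1 with both.

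**Figure D5:**
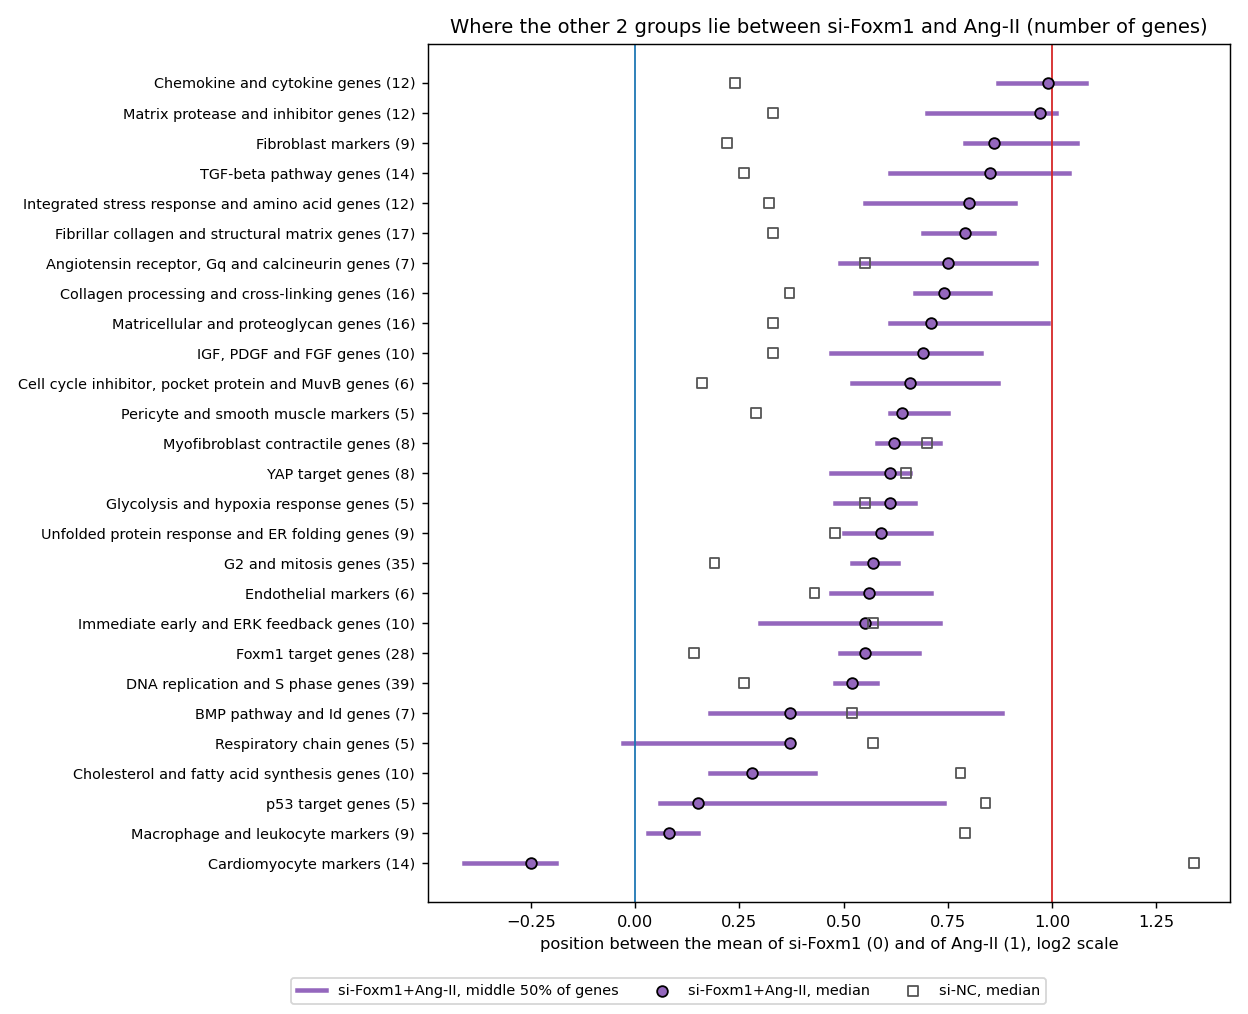
Position of the combined treatment (circles, with the middle 50% of genes as bars) and of si-NC (squares) on the log2 line from the mean of si-Foxm1 at 0 to the mean of Ang-II at 1, as medians over the placed genes of each list with their number in brackets. Chemokine genes lie at the Ang-II end (0.99), division cycle genes in the middle, and macrophage (0.08) and cardiomyocyte markers (-0.25) at or beyond the si-Foxm1 end.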

How the data were processed

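RNA sequencing libraries were made from 18 samples, 3 in each of 6 groups, with a stranded mRNA kit per the labels' protocols. The tools fastp, HISAT2 and HTSeq and the mm39 genome are named in the submitters' processing notes; versions, annotation and strand setting: not given in the sources used here. Gene symbols carry FPKM values as deposited by the authors, and 0 columns lacked a sample. Groups and numbers came from the titles.

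Genes with a mean deposited FPKM of at least 1 over the 6 libraries compared were kept. FPKM of the 12 knockdown-arm libraries was divided by median-of-ratios factors, put on the log2 scale with a pseudocount of 1, and fitted in limma 3.58.1 (R 4.3.3) with a mean per group and a mean-variance trend. The Benjamini-Hochberg adjustment ran over the 11194 genes. Fragment totals were recovered from FPKM ratios, which gave whole counts within 0.02 for 17960 of 17960 genes above 0. On simulated data of this comparison with 11186 genes, 48% of 1.25-fold and 96% of 2-fold changes were recovered. The simulation changed only 200 genes and gave every library the same spread, with no odd library. These rates therefore check the fit and may not hold for the real libraries.

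The genes named were Foxm1, the 15 highest and 15 lowest called genes whose groups did not overlap (predicted genes with Gm or Rik symbols left out), and up to 6 genes of smallest p in each of 34 lists. Any other gene was chosen after its values were seen, and some genes that the rule names are not reported here. The members and lists were chosen with earlier results of these data known, so list counts are descriptions. Alternatives were 9 other settings and each of the 6 libraries left out. Promoters and motifs came from RefSeq on GRCm38.p6, and no coordinate on mm39 was used.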

Additional observations from a re-analysis of the deposited data

How the results depend on the processing

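Called genes numbered 7120 to 7486 when each of the 6 libraries was left out in turn, with 3659 to 3858 higher, 3454 to 3628 lower, and 160 to 192 and 182 to 249 at least 2-fold higher and lower. Without scaling, 2153 genes were higher and 6132 lower, 325 of the lower by at least 2-fold. A pseudocount of 0.1 gave 262 and 392 genes at least 2-fold higher and lower, and limma-voom on the recovered counts with TMM factors 270 and 423, both of which shrink the ratios of low genes less. Foxm1 ranged from -0.28 to -0.08 with a library left out and was -0.31 without scaling. Under quantile normalization Rplp1 (-0.06), Rplp0 (-0.11), Rpl32 (-0.10), Rps18 (-0.07) and Vim (-0.22) changed direction, as did Abcc9 without scaling (-0.04), and the cause was not tested. Krt8 (0.38, adjusted p = 0.0130) lost its call without Ang-II replicate 1 (0.23, adjusted p = 0.0678) or without si-Foxm1 replicate 2 (0.33, adjusted p = 0.0545).

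Whether the replicate numbers pair the libraries is not settled. Same-numbered Ang-II and si-Foxm1 libraries deviated together with weak correlations of 0.04, 0.11 and 0.12, and the other pairs ranged from -0.13 to 0.02. Each library thus correlated best with its own number, a hint from the data and not the design. With the number as a block, 7646 genes were called, 3918 higher and 3728 lower, and Foxm1 was at -0.16 ± 0.08 (adjusted p = 0.116). A gene of 1 kb with no fragment could hold up to 0.159 to 0.165 FPKM in these libraries, counting error only, so differences among genes near that level were not detectable.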
